A study of Mus musculus with 6 samples.

Results

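Granzymes, perforin, the granule proteoglycan that packs them, and the serpins that inhibit granule proteases were examined in antigen-stimulated CD4+ T cells after blockade of PD1 or Lag3. The set held 8 genes of the 47643 in the count table. They were chosen by name, with earlier results of these data known: *Gzma*, *Gzmb*, *Prf1*, *Srgn*, *Serpinb9*, *Serpinb6b*, *Serpinb6a*, and *Serpina3g*. *Serpinb9* was picked because it was higher with anti-PD1 than with isotype, so that the values of all 8 genes in this contrast are given as a description, without a test. Of the 8 genes, 7 had at least 10 reads over the 6 samples and entered the fits, and *Prf1* did not.

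All mice were of the Tg4 Tiger *Nr4a3*-Tocky strain, which combines a transgenic T cell receptor for a myelin basic protein (MBP) peptide, an *Il10*-GFP reporter, and a Timer protein driven by *Nr4a3* that fluoresces blue when new and red once mature. Every mouse received 80 μg of 4Y MBP peptide under the skin and, 24 h later, 800 μg of isotype antibody, anti-PD1 (clone 29F.1A12), or anti-Lag3 (clone given as CB97W) into the peritoneum, followed 30 min later by 8 μg of the same peptide. CD4+ Timer Blue+Red+ cells were sorted from spleens 4 h after this second dose, and 3′ RNA libraries were made from 25 ng of RNA. Each of the 3 groups held 2 samples, described as biological duplicates, and the labels do not give the mice behind each sample or their age. All mice carried the same transgenic receptor and had received the peptide before any antibody was given.

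Cytotoxic lymphocytes store granzymes, which are serine proteases, and perforin, which forms pores in the target membrane, in granules held together by the proteoglycan serglycin. Granzymes that leak into the cytosol of the cell that makes them can harm it, and cytosolic serpins trap such proteases in an irreversible complex. In CD4+ T cells the cytotoxic program is usually a minor one, and granzyme B and its inhibitor are known to be induced by activation.

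Total counts ran from 2107715 to 2648920 per sample, so that 3 reads correspond to between 1.11 and 1.44 CPM, the count scaled to library size with the TMM method. The 8 genes took between 0.0458% and 0.0887% of all counts. All 11 CD4 T cell markers were detected in every sample, with a summed level between 2807 and 3241 CPM. Within this level sum the markers moved in both directions between anti-PD1 and isotype. *Cd5*, an inhibitor of T cell receptor signaling, was called 2.01-fold higher in edgeR (adjusted p of 0.00154, where 0.901% of all genes were called in either direction). Of the 11 markers, 7 had a log2 fold change below 0 and 4 above it. Below 0 were *Cd3d* (-0.34), *Cd3e* (-0.38), *Cd3g* (-0.42), *Cd4* (-0.32), *Lck* (-0.23), *Trbc2* (-0.21), and *Trbc1* (-0.07), none past the adjusted threshold. Above 0, beside *Cd5*, were *Cd2* (0.35), *Cd28* (0.11), and *Trac* (0.07), also without passing it. *Nr4a3*, whose promoter drives the reporter used for the sort, averaged 48.2 CPM in isotype, 29.6 CPM in anti-PD1, and 38.8 CPM in anti-Lag3, with an adjusted p of 0.195 between anti-PD1 and isotype in edgeR. The blocked receptors' own transcripts were low (lowest adjusted p over the 3 comparisons 0.966, edgeR), with means of 14.7, 12.6, and 14.9 CPM for *Pdcd1* and 4.47, 5.02, and 5.10 CPM for *Lag3* in isotype, anti-PD1, and anti-Lag3. The antibodies act on protein, so these transcripts do not test the labels.

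With anti-PD1, the inhibitors *Serpinb9* and *Serpinb6b* stood about 3-fold above isotype. The proteases they are known to block, *Gzmb* and *Gzma*, were 1.56-fold and 1.59-fold higher in the fit, with samples that overlapped between anti-PD1 and isotype. *Srgn* was higher in both anti-PD1 samples by a smaller margin. *Serpinb6a* and *Serpina3g* were near the detection limit, with overlapping groups. Of the 7 genes fitted, 3 did not overlap between anti-PD1 and isotype, all higher with anti-PD1, where 19.2% of all 11877 genes fitted did so in that direction. Nothing is read from this count, because this contrast chose the set.

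*Serpinb9* (chr13:33003250-33017957, plus strand, GRCm38) encodes the cytosolic inhibitor of granzyme B, also called SPI6. *Serpinb6b* (chr13:32965209-32979067, plus strand) encodes a related serpin known to inhibit mouse granzyme A. The 2 genes are neighbors in the serpin cluster of chromosome 13, 24.2 kb apart and transcribed in the same direction. Their upstream sequences are shown because both genes were higher with anti-PD1, and those of *Gzmb* and *Gzma* because these are the proteases inhibited. Each sequence runs 5′ to 3′ toward the RefSeq start (GRCm38.p6), with motif matches in capitals. *Serpinb9* is chr13:33004291-33004540 on the plus strand, *Serpinb6b* is chr13:32965011-32965208 on the plus strand, *Gzmb* is chr14:56262335-56262584 on the minus strand, and *Gzma* is chr13:113100982-113101231 on the minus strand.
Serpinb9: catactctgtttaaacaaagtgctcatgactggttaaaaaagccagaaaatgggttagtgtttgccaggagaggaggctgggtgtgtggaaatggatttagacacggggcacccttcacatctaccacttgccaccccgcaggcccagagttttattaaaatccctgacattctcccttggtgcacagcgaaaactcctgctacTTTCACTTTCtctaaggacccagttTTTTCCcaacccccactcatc
Serpinb6b: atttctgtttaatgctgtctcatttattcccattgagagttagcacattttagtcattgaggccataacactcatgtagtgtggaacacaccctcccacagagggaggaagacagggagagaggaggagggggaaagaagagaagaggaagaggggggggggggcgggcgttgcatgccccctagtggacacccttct
Gzmb: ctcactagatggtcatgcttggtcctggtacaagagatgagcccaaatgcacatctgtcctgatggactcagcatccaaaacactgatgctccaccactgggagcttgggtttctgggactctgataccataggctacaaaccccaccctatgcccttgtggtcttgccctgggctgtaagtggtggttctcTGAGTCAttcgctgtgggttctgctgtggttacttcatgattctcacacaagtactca
Gzma: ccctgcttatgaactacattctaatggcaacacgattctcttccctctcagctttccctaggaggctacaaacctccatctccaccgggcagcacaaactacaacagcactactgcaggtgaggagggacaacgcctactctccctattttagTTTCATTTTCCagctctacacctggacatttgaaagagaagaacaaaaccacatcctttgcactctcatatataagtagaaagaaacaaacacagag

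None of the printed bases lies in a GENCODE exon. The *Serpinb9* window lies inside the span of the GENCODE gene, whose first start is further upstream, and the *Serpinb6b* sequence stops where its GENCODE exon begins. The 250 bases upstream of each start were searched on both strands for an AP-1 site (TGANTCA), an NFAT core (GGAAAA), an interferon-stimulated response element (GAAANNGAAA), a composite of IRF and AP-1 (TGANTCANNNNGAAA), and the kappa B consensus. The composite contains the AP-1 letters, and the NFAT and interferon letters can overlap. Over 32851 promoters, 6.75% held the AP-1 site, 20.4% the NFAT core, 2.98% the interferon element, 0.0974% the composite, and 3.9% the kappa B consensus.

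The *Serpinb9* window held an interferon element at -46 to -37 (TTTCACTTTC, read on the opposite strand) and an NFAT core at -21 to -16. The *Serpinb6b* window held none of the 5 motifs. *Gzmb* had an AP-1 site at -58 to -52 (TGAGTCA), and *Gzma* had an interferon element at -97 to -88 that overlapped an NFAT core at -92 to -87. Among genes not printed, *Serpinb6a* (-84 to -75) and *Srgn* (-220 to -211) also held an interferon element, though not at every start. NFAT cores were also found for *Srgn* (-221 to -216) and *Serpina3g* (-187 to -182), and *Serpina3g* had a kappa B match. *Prf1* held no match. All these are matches of letters only, and binding was not measured.

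*Serpinb9* was at 49.5 and 20.5 CPM in the isotype samples, 92.5 and 128 CPM with anti-PD1, and 36.7 and 54.6 CPM with anti-Lag3. These values rest on 105 and 51, 193 and 314, and 87 and 147 reads. Both anti-PD1 samples were above all 4 others, and the isotype and anti-Lag3 samples overlapped.

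The log2 fold change of *Serpinb9* between anti-PD1 and isotype was 1.68 ± 0.24 (SE, n = 2 per group), a 3.22-fold difference. The isotype samples differed 2.41-fold from each other, a wider gap than that of 99.8% of the 5432 genes with a mean of at least 20 CPM, whose median gap was 1.13-fold. The log2 fold change was 2.43 without isotype replicate 1 and 1.16 without isotype replicate 2. DESeq2 gave 1.66 ± 0.57, and left *Serpinb9* at its own dispersion of 0.147 where the trend of all genes gave 0.0255. The edgeR error rests instead on a quasi-likelihood dispersion, which is on another scale and partly shared over genes. It was 1.40 for *Serpinb9*. In the authors' regularised log values, which shrink noisy differences, the difference was 0.69.

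In bulk RNA, more cells that express a gene and more RNA per cell cannot be told apart. The markers of other cells did not all stay level. The B cell list had 9 of 10 markers detected (*Cd79a* at 0) and summed to between 127 and 138 CPM in isotype, 54.4 and 64.2 CPM in anti-PD1, and 83.1 and 125 CPM in anti-Lag3. The list for myeloid cells, with 12 of 12 detected, summed to between 65.2 and 90.5, 24.9 and 42.9, and 40.5 and 43.4 CPM. On average both lists were lowest in anti-PD1, where *Serpinb9* was highest, and their part in the result was not tested.

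Within these lists edgeR called 3 genes, all lower with anti-PD1 than with isotype. The immunoglobulin genes *Igkc* (log2 fold change of -2.51, adjusted p of 0.00132 in edgeR) and *Ighm* (-0.89, adjusted p of 0.00836 in edgeR) were called in the B cell list, of which DESeq2 called 1 and limma-voom 2. The complement gene *C1qa* (-2.59, adjusted p of 0.0266 in edgeR) was called in the myeloid list, of which DESeq2 and limma-voom called 0. *Lyz2* was at -0.95 and *Vcam1* at -1.59, without passing the test. Of the 11 myeloid markers fitted, 9 were below 0 and 2 above, *Cd68* (0.95) and *Hmox1* (0.29). Neutrophil markers (6 of 8 detected, *Mpo* and *Elane* at 0) summed to between 8.48 and 22.1 CPM in isotype, 7.67 and 8.59 CPM in anti-PD1, and 1.49 and 5.48 CPM in anti-Lag3, with *S100a8* at -1.13 and *S100a9* at -1.26 between anti-PD1 and isotype. Platelet and red cell markers (5 of 6 detected, *Pf4* at 0) summed to between 23.7 and 33.5, 10.1 and 27.4, and 12.7 and 30.1 CPM, with *Hbb-bs* at -0.34 and *Hba-a1* at -1.58.

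The CD8 T and NK cell list, the cells best known for these genes, had 11 of 14 markers detected (*Klre1*, *Klra4*, and *Klra8* at 0) and summed to between 218 and 263 CPM in isotype, 212 and 245 CPM in anti-PD1, and 221 and 242 CPM in anti-Lag3, so that the groups overlapped. Most of this sum was *Il2rb*, which activated CD4+ T cells express too. *Cd8b1* averaged 45.5 CPM in isotype, 30.0 CPM in anti-PD1, and 30.2 CPM in anti-Lag3, and *Cd8a* averaged 6.01, 2.22, and 3.04 CPM. For both genes the samples of either antibody lay below both isotype samples, without passing the adjusted threshold in edgeR. Of the 8 markers fitted, 4 had a log2 fold change above 0 and 4 below it between anti-PD1 and isotype. *Fcer1g* averaged 5.74, 1.81, and 7.83 CPM in the same order, and *Ncr1* had 1 read in all. Markers of basophils and mast cells, which hold other granule proteases, were at 0 for 6 of 6 genes.

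*Serpinb6b* was at 64.1 and 58.4 CPM with isotype, 175 and 178 CPM with anti-PD1, and 86.9 and 111 CPM with anti-Lag3. The 3 groups did not overlap, in the order isotype, anti-Lag3, anti-PD1, and replicates lay closer together than for *Serpinb9*. Between anti-PD1 and isotype the log2 fold change was 1.53 ± 0.16 (SE), or 2.89-fold, and ranged from 1.46 to 1.60 with each sample left out in turn.

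*Serpinb6a* (chr13:33917918-34002794, minus strand) encodes a serpin of the same clade, SPI3, at the far end of the cluster. It was at 6.13 and 5.23 CPM in isotype, 2.40 and 8.59 CPM in anti-PD1, and 3.37 and 4.46 CPM in anti-Lag3. The anti-PD1 samples were the lowest and the highest of the 6, on 5 and 21 reads, and the log2 fold change against isotype was -0.02 ± 0.64 (SE). Its span overlaps *Ripk1* and *Nqo2* on the other strand, and the strand setting used for counting is not given in the sources used here.

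*Serpina3g* (chr12:104236245-104241939, plus strand) encodes Spi2A, a cytosolic serpin known to inhibit cathepsins that escape from lysosomes. It was at 6.13 and 4.43 CPM in isotype, 1.92 and 4.91 CPM in anti-PD1, and 3.80 and 3.71 CPM in anti-Lag3. An anti-PD1 sample was the lowest of the 6 while the other lay between the isotype samples, and the log2 fold change against isotype was -0.59 ± 0.71 (SE). Of the 451 windows of 50 bases in the last 500 bases of its longest transcript, 11 (2.44%) were shared with *Serpina3f*, so that a few reads could belong to either gene. The other 7 genes shared no such window with another gene.

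**Figure D1:**
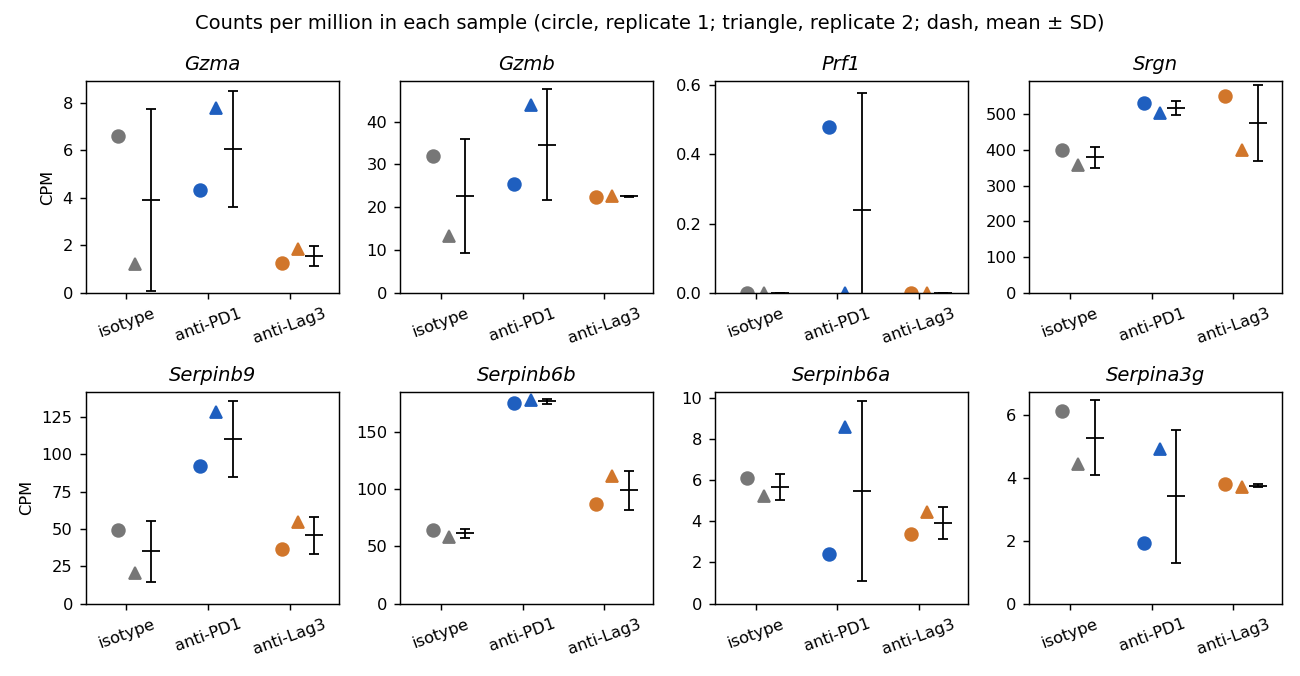
Level of each of the 8 genes in CPM (vertical axis, starting at 0, a scale of its own in each panel) in the isotype, anti-PD1, and anti-Lag3 samples. Circles are replicate 1, triangles replicate 2, and the dash with bars is the mean ± SD (n = 2), cut off at 0. *Serpinb9* (92.5 and 128 CPM) and *Serpinb6b* (175 and 178 CPM) in anti-PD1 lie above all other samples, whereas *Gzma*, *Gzmb*, *Serpinb6a*, and *Serpina3g* overlap between anti-PD1 and isotype.

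Among the granule contents, *Gzmb* (chr14:56258838-56262260, minus strand), the protease that cleaves after aspartate and starts apoptosis in target cells, was at 32.0 and 13.3 CPM in isotype, 25.4 and 43.7 CPM in anti-PD1, and 22.4 and 22.7 CPM in anti-Lag3. The highest value was in an anti-PD1 sample and the lowest in an isotype sample, and the other 4 lay between them. Against isotype, the anti-PD1 log2 fold change was 0.64 ± 0.31 (SE). It fell to 0.12 without isotype replicate 2 and to 0.18 without anti-PD1 replicate 2, and was 1.39 without isotype replicate 1.

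*Gzma* (chr13:113093825-113100981, minus strand), a tryptase, had 14 and 3 reads in isotype (6.60 and 1.21 CPM), 9 and 19 reads in anti-PD1 (4.31 and 7.77 CPM), and 3 and 5 reads in anti-Lag3 (1.27 and 1.86 CPM). Isotype replicate 2 and anti-Lag3 replicate 1 were at the level of 3 reads. The log2 fold change between anti-PD1 and isotype was 0.67 ± 0.76 (SE), and it turned to -0.11 without isotype replicate 2.

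*Prf1* (chr10:61297833-61304680, plus strand), which encodes perforin, had 1 read in anti-PD1 replicate 1 and 0 in the 5 other samples. A count of 0 allows up to 3 reads, or between 1.11 and 1.44 CPM, so that this depth sets only an upper limit on perforin transcripts in those 5 samples, and a single read gives no comparison between groups. Intervals and limits of this kind cover counting error only.

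*Srgn* (chr10:62493833-62527451, minus strand), which encodes serglycin, was at 401 and 359 CPM in isotype, 532 and 503 CPM in anti-PD1, and 550 and 401 CPM in anti-Lag3. Both anti-PD1 samples were above both isotype samples, and anti-Lag3 replicate 1 was the highest of all. Anti-PD1 exceeded isotype by a log2 fold change of 0.45 ± 0.11 (SE), or 1.36-fold, which ranged from 0.37 to 0.53 with each sample left out.

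*Serpinb9* and *Gzmb* differed alike between the isotype replicates, but not between those of the other groups. Reads of *Serpinb9* per read of *Gzmb* were 1.54 and 1.55 in the isotype samples, although each gene differed 2.41-fold between them. The ratio was 3.64 and 2.93 in anti-PD1 and 1.64 and 2.41 in anti-Lag3. Both anti-PD1 ratios were above all 4 others, which is a description only, because *Serpinb9* was picked for its rise with anti-PD1. Between replicates, *Serpinb9* differed 1.39-fold and *Gzmb* 1.72-fold in anti-PD1, and 1.49-fold and 1.01-fold in anti-Lag3. *Gzma* went the same way as *Gzmb* within each group, higher in isotype replicate 1 and in anti-PD1 replicate 2. *Serpinb6b* differed 1.10-fold between the isotype replicates. Its reads per read of *Serpinb9* were 1.30 and 2.84 in isotype, 1.89 and 1.39 in anti-PD1, and 2.37 and 2.03 in anti-Lag3, with overlapping groups. The ratios describe how 2 genes moved within a library and do not compare their amounts.

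**Figure D2:**
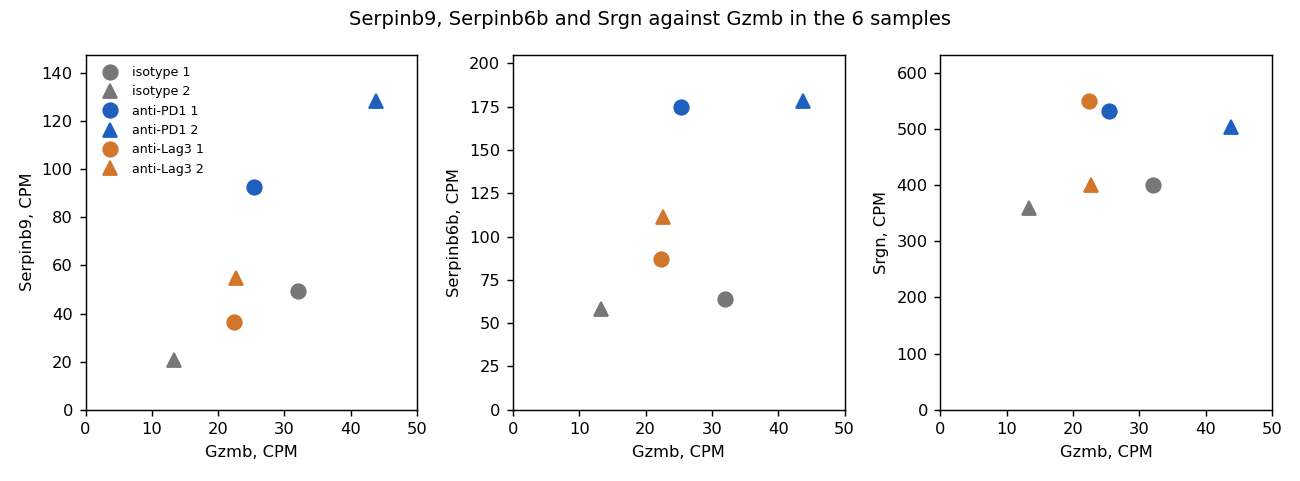
Level of *Serpinb9*, *Serpinb6b*, and *Srgn* (vertical axes, CPM) against that of *Gzmb* (horizontal axis, CPM) in the 6 samples, with 1 point per sample. The isotype samples differ 2.41-fold in both *Serpinb9* and *Gzmb*. The anti-PD1 points lie higher for *Serpinb9*, which was picked for its rise with anti-PD1, and for *Serpinb6b*, at overlapping *Gzmb* levels.

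Over the 6 samples, the log2 CPM of *Serpinb6b* correlated with that of *Serpinb9* at a Pearson r of 0.901, that of *Gzmb* at 0.862, *Gzma* at 0.783, *Srgn* at 0.579, *Serpinb6a* at 0.138, and *Serpina3g* at -0.246. The samples share the group differences that chose *Serpinb9*, so these values are descriptions. Of the 5432 genes with a mean of at least 20 CPM, 75 were more alike to *Serpinb9* than *Serpinb6b* was, and 126 more than *Gzmb* was. The 5 most alike were *Fam50a* (0.979), *Fam210a* (0.978), *Pdzd11* (0.976), *Tent5c* (0.975), and *Rnf6* (0.975). *Tent5c*, a poly(A) polymerase, was at 42.4 and 29.4 CPM in isotype, 77.6 and 76.9 CPM in anti-PD1, and 40.5 and 49.8 CPM in anti-Lag3.

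Whether Lag3 blockade moved the same genes was asked with anti-Lag3 against isotype, which shares the isotype samples with the contrast that chose *Serpinb9*. None of the 7 genes fitted passed an adjusted p of 0.05 in edgeR (0 calls, 2 at an unadjusted p under 0.05, as were 5.96% of all genes), and DESeq2 and limma-voom also made 0 calls. Over all genes 0.0421% were called. *Serpinb6b* and *Srgn* did not overlap and were higher, where 17.3% of all genes did so. *Serpinb6a* and *Serpina3g* did not overlap and were lower, where 17.3% did so, each on 13 reads or fewer per sample.

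The log2 fold change of *Serpinb6b* with anti-Lag3 was 0.70 ± 0.16 (SE), or 1.62-fold, with an unadjusted p of 1.04e-04 and an adjusted p of 0.138 in edgeR. Over the alternatives the adjusted p ran from 0.00632 to 0.884. It was 0.0344 when all genes with at least 1 read were tested and 0.00632 without anti-Lag3 replicate 1. *Srgn* was at 0.32 ± 0.11 (SE), with an adjusted p of 0.667 in edgeR, which became 0.00714 without anti-Lag3 replicate 2 and ran up to 1 elsewhere. *Serpinb9* was at 0.41 ± 0.26 (SE), and at -0.11 without isotype replicate 2. *Gzmb* was at 0.01 ± 0.32 (SE), with a 95% interval from -0.64 to 0.66, which includes changes in either direction. *Gzma*, at -1.25 ± 0.87 (SE), turned to 0.37 without isotype replicate 1.

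**Figure D3:**
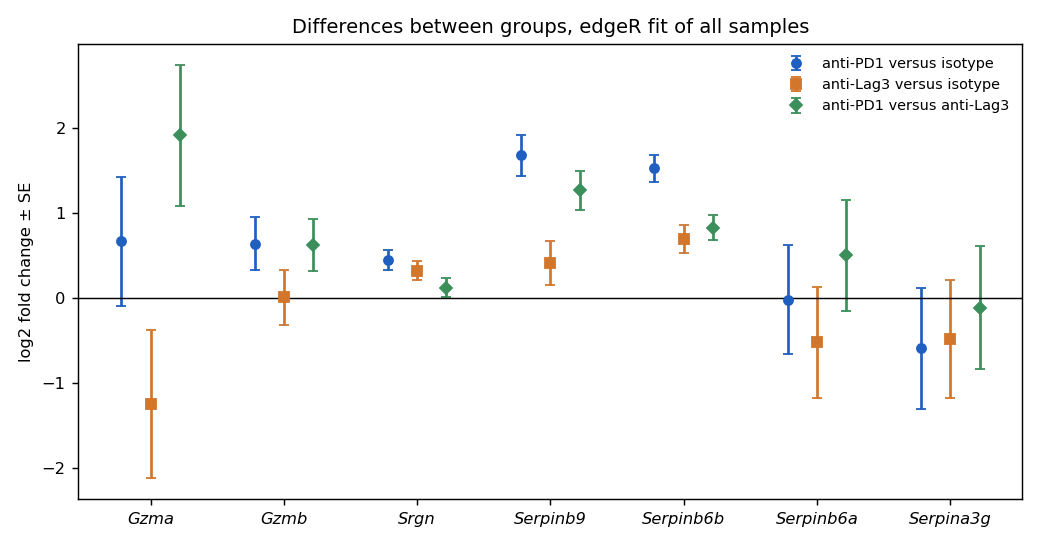
Log2 fold change ± SE (vertical axis) of the 7 genes fitted, for anti-PD1 against isotype (circles), anti-Lag3 against isotype (squares), and anti-PD1 against anti-Lag3 (diamonds). *Serpinb9* (1.68) and *Serpinb6b* (1.53) have the largest differences between anti-PD1 and isotype, and the low-count genes have the widest errors.

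The antibodies were compared directly as anti-PD1 against anti-Lag3, which shares the anti-PD1 samples with the contrast that chose *Serpinb9*. *Serpinb9* is given as a description here too, because the anti-PD1 samples picked it. Of the 6 other genes fitted, edgeR called 1, *Serpinb6b*, higher with anti-PD1, against 0.303% of all genes in either direction and 0.244% higher. The whole set was chosen with earlier results of these data known, so this call is not independent of the choice. *Serpinb6b* differed by a log2 fold change of 0.83 ± 0.15 (SE), or 1.78-fold, with an adjusted p of 0.00269 in edgeR and 0.00983 in DESeq2. Both anti-PD1 samples were above both anti-Lag3 samples.

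The adjusted p of *Serpinb6b* in this comparison passed 0.05 in 12 of 14 alternatives, over a range from 6.42e-05 to 0.130 (edgeR, limma-voom, and DESeq2). It was 0.0531 without anti-PD1 replicate 1 and 0.130 without anti-PD1 replicate 2, on log2 fold changes of 0.85 and 0.81. *Serpinb9* was at 1.27 ± 0.23 (SE), or 2.41-fold, and at 1.01 without anti-PD1 replicate 2.

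Both granzymes were higher in the anti-PD1 samples than in both anti-Lag3 samples, without passing the test. For *Gzmb* the log2 fold change was 0.63 ± 0.31 (SE), with an adjusted p of 0.758 in edgeR. That of *Gzma* was 1.92 ± 0.83 (SE), on 8 reads in all in the anti-Lag3 samples, with an adjusted p of 0.687 in edgeR. Among the 7 genes, 4 did not overlap and were higher with anti-PD1 (*Serpinb9* among them), where 18.2% of all genes were. *Srgn* differed by 0.12 ± 0.11 (SE), with an adjusted p of 0.937 in edgeR and a 95% interval from -0.10 to 0.35. *Serpinb6a* (0.50 ± 0.65) and *Serpina3g* (-0.11 ± 0.73) had intervals too wide to place.

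The *Serpinb* cluster of chromosome 13 was then read gene by gene. Its first and last *Serpinb* genes lie at chr13:32842092-34002794, a span of 1.16 Mb that holds 34 annotated genes, 16 of them *Serpinb* genes. Reads fell on 5 of these 16, and 3 had a mean of at least 5 CPM, namely *Serpinb6b*, *Serpinb9*, and *Serpinb6a*. *Serpinb9b*, the gene next to *Serpinb9* on the other side, had 0 reads in all samples. *Serpinb1a*, which encodes an inhibitor of neutrophil elastase, had 17 reads in all, with a log2 fold change of 1.96 ± 1.57 (SE) between anti-PD1 and isotype and an adjusted p of 0.854 in edgeR.

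**Figure D4:**
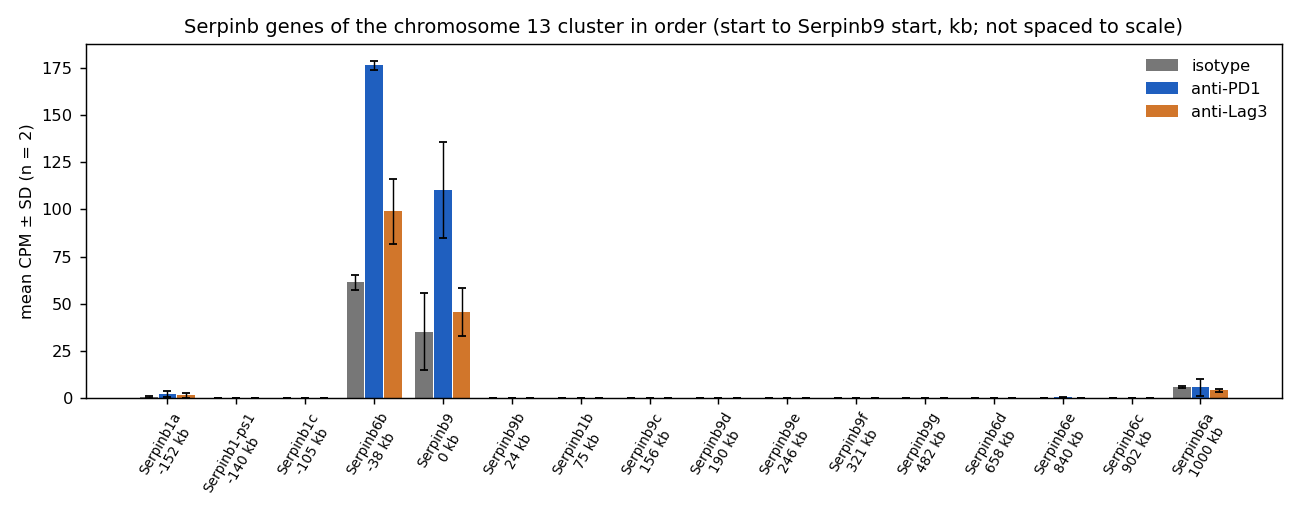
Mean level ± SD (n = 2, vertical axis in CPM, starting at 0) of the 16 *Serpinb* genes of the chromosome 13 cluster in their order along the chromosome, with the distance of each start from that of *Serpinb9* in kb. Signal was concentrated in the neighbors *Serpinb6b* and *Serpinb9*, with means of 177 and 110 CPM in anti-PD1 against 61.2 and 35.0 CPM in isotype, and *Serpinb6a* stood near 5 CPM.

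Related genes were read from lists compiled by function. Of the 8 other granzymes, 6 had no read and none reached 10 reads. Of 21 other clade B serpins, 18 had no read and only *Serpinb1a* was fitted. Of 17 serpins of other clades, 10 had no read and 5 were fitted. For these 5, edgeR, DESeq2, and limma-voom made 0 calls between anti-PD1 and isotype, with 1 at an unadjusted p under 0.05. That gene was *Serpine2*, an inhibitor of thrombin, at 4.71 and 4.43 CPM in isotype, 12.0 and 9.81 CPM in anti-PD1, and 6.75 and 1.86 CPM in anti-Lag3. Its anti-PD1 samples were above all others, with a log2 fold change of 1.24 against isotype and an adjusted p of 0.536 in edgeR.

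The proteases and inhibitors that share the granule pathway gave 0 calls of 12 between anti-PD1 and isotype in edgeR, DESeq2, and limma-voom, and 0 at an unadjusted p under 0.05. *Ctsc*, which encodes cathepsin C, the enzyme that activates progranzymes, averaged 44.3 ± 3.08 CPM (SD) in anti-PD1 and 56.4 ± 13.1 CPM in isotype, with a log2 fold change of -0.36. *Cst7*, which encodes the cathepsin inhibitor cystatin F, was at -0.28, and *Ctsb* and *Ctss*, the most abundant of the list by read count, were at -0.09 and -0.13.

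Of 22 genes of granule transport and release, 20 were fitted and 1 was called higher with anti-PD1 than with isotype in edgeR, as in limma-voom, whereas DESeq2 called 0. Over all genes, 0.631% were called higher and 0.901% in either direction. That gene was *Stx11*, which encodes a syntaxin needed for granule fusion and mutated in a familial form of hemophagocytic lymphohistiocytosis. It was at 20.7 and 16.1 CPM in isotype, 44.1 and 34.3 CPM in anti-PD1, and 18.1 and 24.5 CPM in anti-Lag3. Both anti-PD1 samples were above all others, and the log2 fold change against isotype was 1.09 ± 0.28 (SE), with an adjusted p of 0.0482 in edgeR, close to the threshold. *Sytl3*, which encodes a Rab27-binding protein of granule transport, was at 14.1 and 4.03 CPM in isotype, 24.0 and 22.5 CPM in anti-PD1, and 8.86 and 8.91 CPM in anti-Lag3. Its log2 fold change was 1.38, with an adjusted p of 0.110 in edgeR. *Lyst*, of the same list, went the other way, with both anti-PD1 samples below both isotype samples. It was at 70.7 and 66.8 CPM in isotype, 37.9 and 46.2 CPM in anti-PD1, and 51.4 and 39.0 CPM in anti-Lag3. The log2 fold change of *Lyst* between anti-PD1 and isotype was -0.70, with an adjusted p of 0.103 in edgeR. *Kif5b* and *Coro1a*, the most abundant of this list by read count, were at 0.02 and -0.21. The median log2 fold change of the 20 genes was 0.03, with 11 above 0 and 9 below, against 0.00 over all genes fitted.

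The death ligands and their receptors, a second route of killing, had 7 genes fitted and 1 called, lower with anti-PD1 than with isotype, where 0.901% of all genes were called in either direction. It was *Lta*, which encodes lymphotoxin alpha, at means of 13.3 ± 7.25 CPM (SD) and 45.5 ± 24.4 CPM, and *Tnf* was at 6.90 ± 1.08 CPM and 12.2 ± 3.25 CPM. The median log2 fold change of the 7 was -0.81, with 6 of 7 below 0. Between anti-PD1 and anti-Lag3, *Lta* was the 1 call that edgeR made in these lists, also lower with anti-PD1, and DESeq2 and limma-voom made 0. *Fasl* averaged 1.23 CPM in anti-PD1 and 2.75 CPM in isotype, near the level of 3 reads.

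Transcription factors of cytotoxic differentiation gave 0 calls of 7 in edgeR, DESeq2, and limma-voom, with 1 at an unadjusted p under 0.05. *Runx3* was at a log2 fold change of 0.20, *Tbx21* at -0.24, *Zeb2* at 0.59, and *Prdm1* at 0.88 (means of 17.5 CPM in anti-PD1 and 9.55 CPM in isotype, adjusted p of 0.543 in edgeR). Between anti-Lag3 and isotype, edgeR called 0 genes of any of these lists. The unadjusted p in edgeR was under 0.05 for 1 of 20 genes of granule release (*Lyst*, log2 fold change of -0.61). It was also under 0.05 for 1 of 7 transcription factors (*Hopx*, 1.48), and for 0 of the granule proteases, the death ligands, and the other serpins.

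**Figure D5:**
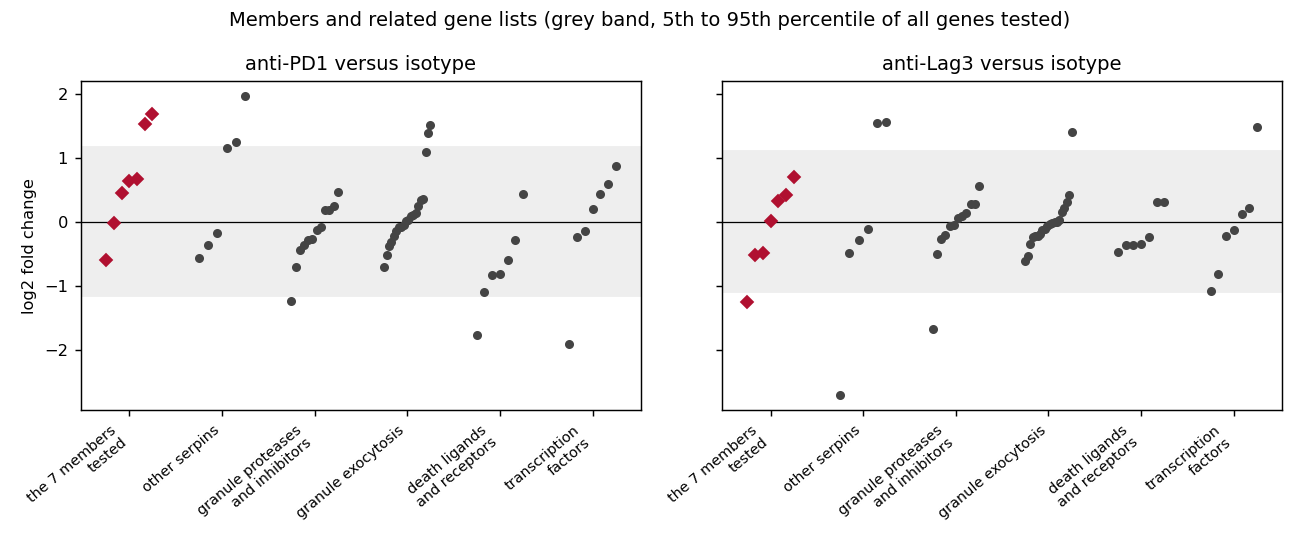
Log2 fold change (vertical axis) of the 7 genes fitted (diamonds) and of the genes of 5 related lists (circles, sorted within each list, with clade B serpins among the other serpins), for anti-PD1 against isotype (left) and anti-Lag3 against isotype (right). The grey band spans the 5th to 95th percentile of all 11877 genes fitted (-1.15 to 1.17 on the left). *Serpinb9* (1.68) and *Serpinb6b* (1.53) lie above it on the left. This is no test, because the contrast on the left chose the set.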

How the data were processed

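The authors sequenced QuantSeq 3′ libraries, aligned reads to GRCm38 with STAR 2.5.2a and tallied them by gene in HTSeq-count. They deposited raw counts and regularised log values (rlog, DESeq2, log2 scale). They had left out a further replicate batch as an outlier. The annotation release and strand setting are not given in the sources used here.

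The 8 genes and all lists were chosen with earlier results of these data known. The 11877 genes with a total of 10 reads or more were fitted together in edgeR 4.0.16 (R 4.3.3, TMM, quasi-likelihood F-test), and p-values were adjusted over all genes by the Benjamini-Hochberg method (threshold 0.05). A standard error is the log2 fold change divided by the root of F. DESeq2 1.42.0, limma-voom (limma 3.58.1), other scalings and filters, samples left out in turn, and a replicate block were alternatives. The fits were tested on simulated data. Symbols came from GENCODE release M21, which matched 47224 of 47643 identifiers, and promoters from RefSeq. Named genes were the 8, and from each list those called, the 2 most abundant, and the 2 with the largest change at 5 CPM or more, with *Nr4a3*, *Pdcd1*, *Lag3*, and the 5 genes most alike to *Serpinb9*. Other genes were named after their values were seen. Replicates differed by more than sampling noise. Figures used matplotlib 3.10.9.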

Additional observations from a re-analysis of the deposited data

How the results depend on the processing

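With 2 samples per group, each value rests on few libraries. The p-values were computed from these samples only. Their error combines a gene's own spread with a spread shared over genes. The cause of the changes below was not tested.

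Between anti-PD1 and isotype, 107 genes were called, 175 from the 4 samples alone, 166 at a threshold of 0.1, and from 53 to 185 with a sample left out. Between anti-Lag3 and isotype, 5 genes were called, 1 in DESeq2, 0 with filterByExpr, 20 with at least 1 read, 0 from the 4 samples alone, and from 0 to 19 with a sample left out. Of the 7 genes fitted, 0 were called there, 1 with at least 1 read, and from 0 to 1 with a sample left out. Between anti-PD1 and anti-Lag3, 36 genes were called, 16 in DESeq2, 58 with at least 1 read, and from 7 to 59 with a sample left out. Of the 7, 2 were called, *Serpinb9* (which the anti-PD1 samples picked) among them, 1 in DESeq2, and from 0 to 2 with a sample left out.

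The sign of some small differences turned. *Gzmb* between anti-Lag3 and isotype was -0.0021 in DESeq2. With a sample left out, log2 fold changes between anti-PD1 and isotype ran from -0.11 to 2.29 for *Gzma* and from -1.23 to 0.60 for *Serpinb6a*. Between anti-Lag3 and isotype they ran from -2.03 to 0.37 for *Gzma*, from -0.51 to 0.76 for *Gzmb*, and from -0.11 to 1.16 for *Serpinb9*. Between anti-PD1 and anti-Lag3 they ran from -0.10 to 0.37 for *Srgn*, from -0.71 to 1.12 for *Serpinb6a*, and from -0.95 to 0.38 for *Serpina3g*. *Serpinb9* and *Serpinb6b* kept their direction between anti-PD1 and both other groups in every alternative run. For both genes the anti-PD1 samples were above all other samples, so leaving a sample out is no test of the direction.

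Samples of different groups shared replicate numbers. Their deviations correlated at 0.0492 for isotype with anti-PD1, 0.0512 for isotype with anti-Lag3, and -0.0493 for anti-PD1 with anti-Lag3 over 5432 genes. With the replicate number as a block, 144, 6, and 46 genes were called in the 3 comparisons. In the comparisons with anti-Lag3, 0 and 2 of the 7 genes were called, as without the block. The 2 include *Serpinb9*, which the anti-PD1 samples picked, so its call is no test.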
